A study of Mus musculus with 2 samples.

Results

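The enzymes that make phosphatidylcholine and phosphatidylethanolamine differed little between eye cups of mice labelled Mfsd2a KO and wild-type eye cups at postnatal day 13. So did measured genes in general, whose log2 differences, taken without sign, had a median of 0.060, beside 0.051 for the measured enzymes. The set was chosen by gene symbol: it holds 10 of the 18193 genes with a probe set of their own on the array, namely the choline and ethanolamine kinases Chka, Chkb and Etnk1, the cytidylyl transferases Pcyt1a, Pcyt1b and Pcyt2, the phosphotransferases Chpt1 and Cept1, the methyltransferase Pemt and the decarboxylase Pisd. These genes were read by 23 probe sets annotated with a member symbol alone. None of the 9 measured members was 1.2-fold higher or lower by its brightest probe set, where 1.79% of all measured genes were higher and 1.17% lower by that size. Of their 22 measured probe sets 1, for Chpt1, was 1.25-fold higher, where 1.85% of all measured probe sets were at least 1.2-fold higher.

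One sample was RNA pooled from the eye cups of 6 animals labelled Mfsd2a KO, and the other was RNA pooled from 6 wild-type animals. Both pools were from postnatal day 13, and each was hybridised to 1 Affymetrix Mouse 430 2.0 array, which reads a transcript through probe sets lying mostly near its 3′ end. An eye cup is the retina, pigment epithelium, choroid and sclera left when the front of the eye, the lens and the optic nerve have been taken off. The deleted stretch of Mfsd2a, the strain and the sex of the animals are not given in the sources used here. A single array stands for each genotype and nothing measures the spread among samples. There are therefore no tests or p-values, and every difference is one between 2 arrays. In such bulk tissue, fewer cells of a type and less RNA per cell cannot be told apart.

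Phosphatidylcholine and phosphatidylethanolamine are the main phospholipids of animal membranes, and in photoreceptor outer segments both carry much docosahexaenoic acid. Each is built by a Kennedy pathway: a kinase phosphorylates choline or ethanolamine, a cytidylyl transferase activates the product as a CDP compound, and a phosphotransferase joins the head group to diacylglycerol. Phosphatidylethanolamine is also made in mitochondria by decarboxylation of phosphatidylserine, and in liver it can be methylated to phosphatidylcholine. Mfsd2a encodes a transporter that imports lysophosphatidylcholine, a phospholipid with its head group already in place, so these enzymes form the cell's own route beside that import.

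The values are probe set intensities on a linear scale, and each log2 difference is the array labelled Mfsd2a KO minus the wild-type array. A probe set or gene counted as measured when it reached the median of at least 1 array, 93.4 on the array labelled Mfsd2a KO or 94.2 on the wild-type array. A gene took the difference of its brightest probe set. Over all 11568 measured genes log2 differences had a median of 0.014, and 95% of them lay between -0.21 and 0.23. Probe sets of the same gene lay around the mean of their gene with an SD of 0.0886 on the log2 scale (5201 genes with several measured probe sets). The one probe set of Mfsd2a read 244 on the array labelled Mfsd2a KO and 181 on the wild-type array, a log2 difference of 0.43 against the direction of the label, and whether its probes lie in the deleted part is not known here. Each direction below therefore rests on the label.

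**Figure D1:**
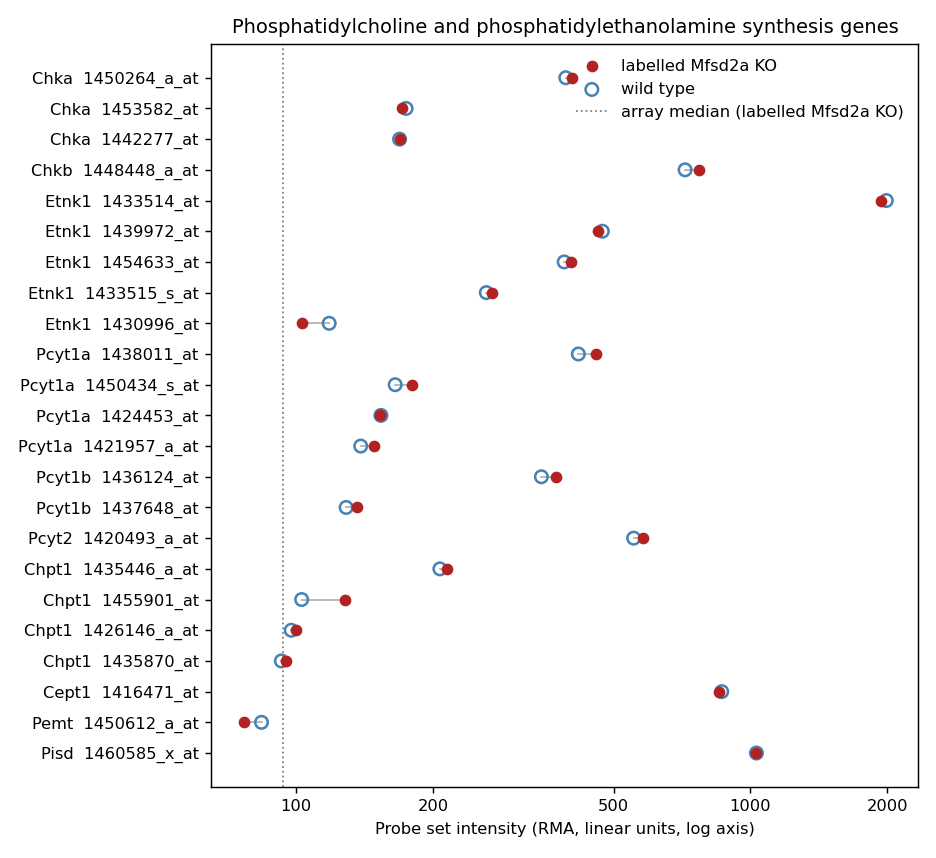
Intensity (linear RMA units on a log axis) of each of the 23 probe sets of the 10 genes on the array labelled Mfsd2a KO (filled) and the wild-type array (open), with 1 array per genotype and the median of the array labelled Mfsd2a KO dotted. The points of a pair nearly coincide, the widest gaps being those of Chpt1 1455901_at (128 on the array labelled Mfsd2a KO, 103 on the wild-type array) and Etnk1 1430996_at (103 on the array labelled Mfsd2a KO, 118 on the wild-type array), and both points of Pemt lie below the median.

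The first step showed no common direction. Chkb encodes choline kinase beta, whose loss causes a muscular dystrophy in mice. Its 1 probe set read 772 on the array labelled Mfsd2a KO and 718 on the wild-type array, a log2 difference of 0.10. Differences at least as large were found in 28.8% of the 20105 measured probe sets. Chka encodes choline kinase alpha, the form needed for early development in mice. Its brightest probe set read 404 on the array labelled Mfsd2a KO and 392 on the wild-type array (log2 difference 0.044). A second Chka probe set read 171 on the array labelled Mfsd2a KO and 175 on the wild-type array (-0.028). The faintest read 169 on both. The Chka probe sets thus lay on both sides of 0 and within 0.072 of each other.

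Etnk1 encodes ethanolamine kinase, which starts the phosphatidylethanolamine branch, and was read by 5 probe sets. The brightest read 1940 on the array labelled Mfsd2a KO and 1992 on the wild-type array, a log2 difference of -0.038. The faintest, 1430996_at, read 103 on the array labelled Mfsd2a KO and 118 on the wild-type array, and its log2 difference of -0.20 was the lowest among the measured probe sets of the set. The other probe sets of Etnk1 ran from -0.030 to 0.049, so that 2 of the 5 were above 0 and 3 below. The annotation lists the brightest under the same sequence record as 1454633_at and 1433515_s_at, which differed by 0.049 and 0.041, so these readings of Etnk1 may not be independent of each other.

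All 3 cytidylyl transferases read higher on the array labelled Mfsd2a KO, by 0.065 to 0.13 on the log2 scale, where 55.8% of all measured genes were above 0. Pcyt1a encodes CTP:phosphocholine cytidylyl transferase alpha, the rate-limiting enzyme of phosphatidylcholine synthesis, which is switched on when it binds membranes poor in that lipid. In humans, mutations of PCYT1A cause a skeletal dysplasia with cone-rod dystrophy. The brightest of its 4 probe sets read 456 on the array labelled Mfsd2a KO and 418 on the wild-type array, a log2 difference of 0.13 or 1.09-fold, the highest of any member by that measure. Differences at least as large were found in 21.1% of measured probe sets. A second Pcyt1a probe set read 179 on the array labelled Mfsd2a KO and 165 on the wild-type array (0.12), and another read 148 on the array labelled Mfsd2a KO and 139 on the wild-type array (0.096). The annotation lists these probe sets under the same sequence record. The last, 1424453_at, read 153 on the array labelled Mfsd2a KO and 154 on the wild-type array (-0.0086), so that 3 of 4 Pcyt1a probe sets were above 0.

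Pcyt1b encodes the beta form of the same enzyme, best known from brain, and lies on the X chromosome. Its probe sets read 373 and 136 on the array labelled Mfsd2a KO, against 347 and 129 on the wild-type array, with log2 differences of 0.10 and 0.076. Both read higher on the array labelled Mfsd2a KO. The pools also differed in sex-linked RNA: Xist, the RNA of the inactive X chromosome of females, read 4357 on the array labelled Mfsd2a KO and 7055 on the wild-type array, and its part in the X-linked Pcyt1b result was not tested. Pcyt2 encodes the ethanolamine counterpart, which sets the pace of the phosphatidylethanolamine branch. It read 579 on the array labelled Mfsd2a KO and 553 on the wild-type array, a log2 difference of 0.065 that 49.5% of measured probe sets reached or passed in size.

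The upstream sequences of Pcyt1a and Pcyt1b are shown because these genes encode alpha and beta forms of one enzyme and had log2 differences of like size, 0.13 and 0.10. They are from RefSeq, build GRCm38.p6, 250 bases ending just before the outermost annotated start of each gene: chr16:32430671-32430920, plus strand, for Pcyt1a, and chrX:93654613-93654862, plus strand, for Pcyt1b. Capitals mark matches, on either strand, to any of TCACCCCAC (a form of the sterol regulatory element bound by SREBP factors), CACGTG (an E-box), GGGCGG (a GC box) and the CCAAT box.
Pcyt1a: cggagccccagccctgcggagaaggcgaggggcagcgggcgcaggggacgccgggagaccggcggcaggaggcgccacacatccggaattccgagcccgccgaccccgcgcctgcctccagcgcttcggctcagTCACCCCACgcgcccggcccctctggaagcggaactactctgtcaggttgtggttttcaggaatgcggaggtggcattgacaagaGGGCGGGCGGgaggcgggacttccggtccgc
Pcyt1b: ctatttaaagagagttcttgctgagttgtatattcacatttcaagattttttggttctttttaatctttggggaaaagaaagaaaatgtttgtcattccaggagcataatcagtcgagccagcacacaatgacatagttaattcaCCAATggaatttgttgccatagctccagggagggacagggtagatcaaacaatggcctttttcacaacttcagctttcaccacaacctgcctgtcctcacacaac

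The Pcyt1a stretch holds TCACCCCAC with its first base 116 bases before the start, and a pair of overlapping GC boxes that begin 31 and 27 bases before it. It holds no CCAAT. The Pcyt1b stretch holds 1 CCAAT, 105 bases before the start, and none of the other motifs. Its share of G and C was 39.6%, against 71.6% for Pcyt1a. Promoters were found for 9 members, and Pcyt2 had no entry. Each gene took the listed start nearest its outermost end, which for Pisd, Chka, Etnk1 and Pemt lay 16, 188, 364 and 6373 bases inside the gene. Pcyt1a was the 1 of these 9 with TCACCCCAC, which 0.496% of all 32851 RefSeq promoters of the same length hold. CACGTG was in 0 of the 9, against 6.02% of all promoters. GGGCGG was in 6 of the 9 (Chka, Chkb, Pcyt1a, Chpt1, Cept1 and Etnk1), against 32.7% of all. CCAAT was in 6 of the 9 (Chka, Chkb, Pcyt1b, Chpt1, Pemt and Pisd), against 33.8% of all. The 32851 promoters were not cut to 1 start a gene, as those of the members were. The 6 members with GGGCGG held from 52.4% (Chkb) to 75.6% (Chpt1) G and C. The part of base composition and of this choice of starts in the motif shares was not tested. A match is a string of letters, and no binding was measured.

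The last step of the pathway held the one probe set past 1.2-fold. Chpt1 encodes choline phosphotransferase, a Golgi enzyme that makes phosphatidylcholine from CDP-choline and diacylglycerol. Its probe set 1455901_at read 128 on the array labelled Mfsd2a KO and 103 on the wild-type array, a log2 difference of 0.32 or 1.25-fold. Differences at least as large were found in 1.63% of measured probe sets. The probe set fell short of 1.2-fold, at 0.22, with 50 added to both intensities, and lay below a floor set at the 70th percentile. Leaving out sets named _s_at, _x_at or _a_at made it the brightest of Chpt1, which was then the 1 of 6 measured members past 1.2-fold. The share of all measured genes past 1.2-fold in that setting is not given here, so this count cannot be set against it. The brightest Chpt1 probe set read 215 on the array labelled Mfsd2a KO and 207 on the wild-type array (0.051). The remaining Chpt1 probe sets differed by 0.034 and 0.033 and lay near the floor, one at 99.8 on the array labelled Mfsd2a KO and 97.5 on the wild-type array and the other at 94.9 on the array labelled Mfsd2a KO and 92.7 on the wild-type array. All 4 were thus above 0, but 3 lay within 0.018 of each other and 1455901_at stood 0.27 or more above them. Cept1 encodes the enzyme of the endoplasmic reticulum that uses both CDP-choline and CDP-ethanolamine. It read 854 on the array labelled Mfsd2a KO and 865 on the wild-type array, a log2 difference of -0.019.

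The remaining routes gave small differences or faint readings. Pemt encodes the methyltransferase that turns phosphatidylethanolamine into phosphatidylcholine, known chiefly from liver. Its 1 probe set lay below the floor on both arrays, at 76.5 on the array labelled Mfsd2a KO and 83.9 on the wild-type array (log2 difference -0.13), so Pemt is the 1 member of 10 not counted as measured. Pisd encodes phosphatidylserine decarboxylase of the inner mitochondrial membrane. It read 1027 on the array labelled Mfsd2a KO and 1031 on the wild-type array, a log2 difference of -0.0058. The name of this probe set, ending in _x_at, marks probes that can bind other transcripts, and the annotation assigns other probe sets to Pisd pseudogenes or to Pisd and pseudogenes together, so the Pisd reading is uncertain. One further probe set is annotated with Chkb together with its neighbour Cpt1b and the noncoding gene Gm44502. It lay below the floor, at 75.3 on the array labelled Mfsd2a KO and 73.4 on the wild-type array.

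**Figure D2:**
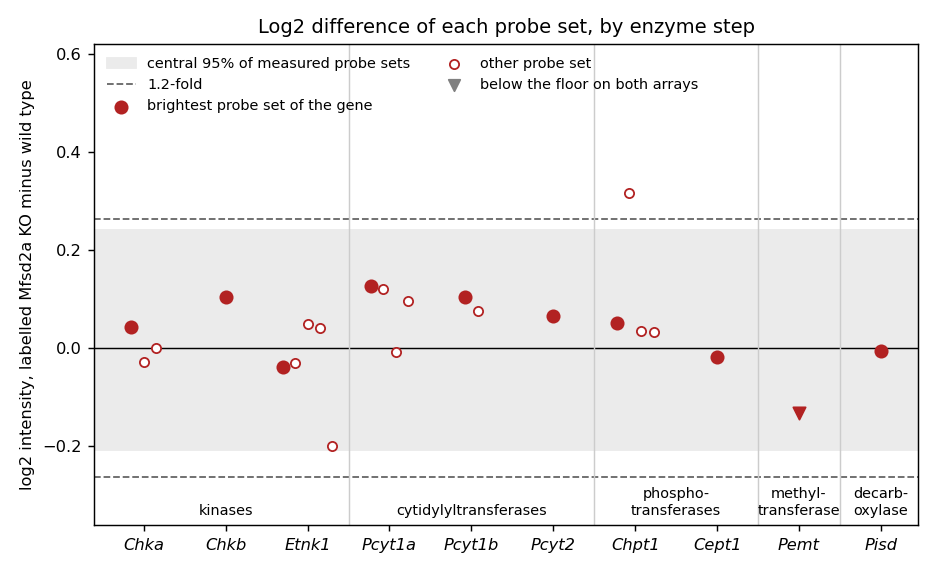
Log2 difference (array labelled Mfsd2a KO minus wild-type array) of each probe set of the 10 genes, in the order of the pathway, with the central 95% of measured probe sets shaded, 1.2-fold dashed, the brightest probe set of a gene filled and a set below the floor as a triangle. Of the 22 measured probe sets 21 lie in the shaded band, and the 1 above it belongs to Chpt1.

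Counted over genes, 6 of the 9 measured members were above 0 and 3 below, where 55.8% of all measured genes were above 0 and 42.4% below. Their median log2 difference was 0.051, beside 0.014 over all measured genes. By brightest probe set the members ran from -0.038 (Etnk1) to 0.13 (Pcyt1a). None was 1.2-fold higher, where 1.79% of measured genes were, and none was 1.2-fold lower, where 1.17% were. Over probe sets, 14 of the 22 measured were above 0, 7 below and 1 at 0, where 55.9% of all measured probe sets were above 0. One was 1.2-fold higher, or 1 in 22, where 1.85% of all measured probe sets were. None was 1.2-fold lower, where 1.15% were. At 1.5-fold none was higher or lower, where 0.124% and 0.0945% of all measured probe sets were. At the small size of 1.1-fold 1 was higher (Chpt1) and 1 lower (Etnk1), where 11.0% and 6.98% of all measured probe sets were. With 9 members and 22 probe sets, counts of 0 or 1 at 1.2-fold cannot be told apart from shares this small. Nothing is concluded from them. The median size of the difference, taken without its sign, was 0.051 for the measured members and 0.060 for all measured genes.

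By step, the median was 0.10 for the 3 cytidylyl transferases, 0.044 for the 3 kinases and 0.016 for Chpt1 and Cept1. The 5 members with several probe sets varied among their own sets with an SD of 0.0931 on the log2 scale, close to the 0.0886 over all such genes. The differences of all 9 brightest probe sets are of the size by which readings of one gene differ from each other. These SDs pool faint and bright probe sets of the same 2 arrays and do not measure the spread among pools. Chkb, Cept1, Pcyt2 and Pisd had 1 probe set each and add nothing to the members' SD. Of the 5 members with several probe sets, Chka, Pcyt1a and Etnk1 had measured probe sets of both signs, while those of Pcyt1b and Chpt1 were all above 0.

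**Figure D3:**
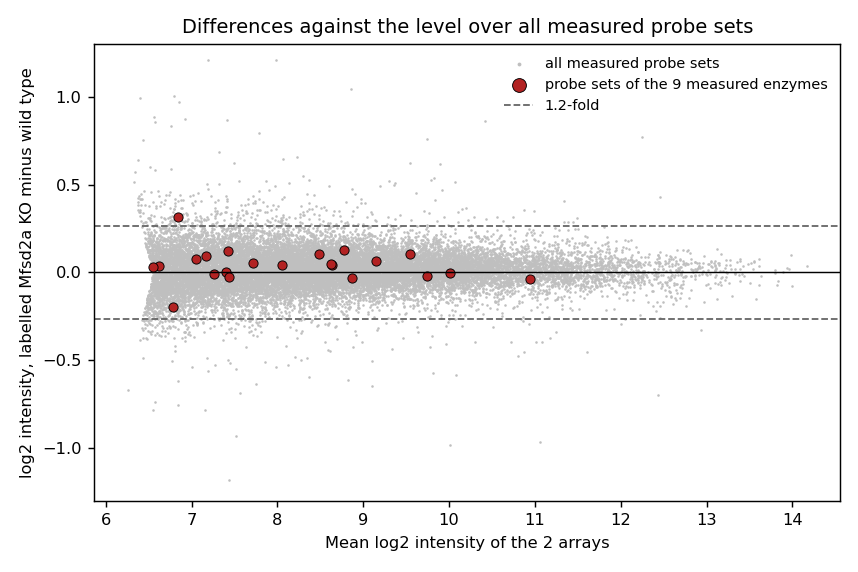
Log2 difference (array labelled Mfsd2a KO minus wild-type array) against the mean log2 intensity of the 2 arrays, for the measured probe sets (grey; 3 of 20105 lie outside the plotted range) and the 22 of the 9 measured enzymes (red), with 1.2-fold dashed. The red points lie within the grey cloud at all levels, and the Chpt1 point at 0.32 is the one outside the dashed lines.

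Genes that feed or use the pathway were examined through 8 lists written from general knowledge. Of 62 listed genes, 58 were on the table with a probe set of their own, 4 were not analysed here and 42 were measured. None of the 42 was 1.2-fold higher or lower by its brightest probe set, beside the 1.79% and 1.17% of all measured genes. In all, 18 were above 0 and 24 below, where 55.8% of all measured genes were above 0 and 42.4% below. Their median log2 difference was -0.033, beside 0.014 over all measured genes.

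Among choline carriers 4 genes were measured, with a median of 0.011. The largest differences were those of Slc44a2 (0.084), a member of the choline transporter-like family, and Flvcr2 (-0.078), a choline transporter of the blood-brain barrier. Slc44a1, the widespread choline transporter-like protein, read 1573 on the array labelled Mfsd2a KO and 1610 on the wild-type array by its brightest probe set (-0.034), while another differed by 0.18. Flvcr1, a choline and ethanolamine transporter whose human form is mutated in a disease with retinal degeneration, read 574 on the array labelled Mfsd2a KO and 552 on the wild-type array (0.057). A fainter Flvcr1 probe set read 90.5 on the array labelled Mfsd2a KO and 109 on the wild-type array (-0.28), so its readings oppose each other. Slc44a1 and Flvcr1 were named for their role after their values were seen.

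Diacylglycerol is the lipid to which both head groups are joined. Of the 8 measured enzymes that supply it 6 were below 0, where 42.4% of all measured genes were, and the median log2 difference was -0.12. The largest were those of the lipid phosphate phosphatases Plpp2, at 2148 on the array labelled Mfsd2a KO and 2374 on the wild-type array (-0.14), and Plpp3, at 993 on the array labelled Mfsd2a KO and 1092 on the wild-type array (-0.14). The second probe set of Plpp3 differed by -0.20. None of the 8 reached 1.2-fold, and no difference between lists was tested.

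The competing CDP-diacylglycerol branch leads to phosphatidylinositol and cardiolipin. Of its 7 measured members 4 were above 0, with a median of 0.023. Cds1, a CDP-diacylglycerol synthase, read 1435 on the array labelled Mfsd2a KO and 1704 on the wild-type array, a log2 difference of -0.25 that was the lowest among the 42 genes. Its other measured probe set read 464 on the array labelled Mfsd2a KO and 523 on the wild-type array (-0.18). Both Cds1 probe sets were lower on the array labelled Mfsd2a KO, the brighter just short of 1.2-fold. Ptpmt1, a mitochondrial phosphatase of the cardiolipin path, differed by 0.11.

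Phosphatidylserine is the substrate of Pisd. In the list of its synthesis and of lipid transfer in mitochondria 5 genes were measured, with a median of -0.039. Prelid3a (-0.15) and Triap1 (-0.091), which belong to lipid transfer complexes of mitochondria, differed most, although the other measured probe set of Prelid3a was at 0.052. The synthases Ptdss1 (0.018) and Ptdss2 (-0.039), named for their role after their values were seen, differed little. Selenoi, an ethanolamine phosphotransferase that works beside Cept1, read 256 on the array labelled Mfsd2a KO and 262 on the wild-type array (-0.033), and was the 1 measured gene of the list of further enzymes. Its other measured probe set differed by -0.18.

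Of the genes that release choline, ethanolamine and their phosphodiesters, 5 of 7 were below 0 with a median of -0.015. They included Napepld (-0.21), a phospholipase that makes N-acylethanolamines, and Pnpla7 (-0.14), a lysophospholipase. For choline oxidation and methyl supply 3 of 4 were above 0 with a median of 0.014, led by Mat2b (0.077), a subunit of the enzyme that makes S-adenosylmethionine, while Gnmt differed by -0.033. Of genes for lipid transfer and sphingomyelin 3 of 6 were above 0 with a median of -0.014, and Stard10 (-0.088), a transfer protein for both phospholipids, and Samd8 (0.072), a sphingomyelin synthase relative, differed most. The other measured probe set of Samd8 went the other way, at -0.12.

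**Figure D4:**
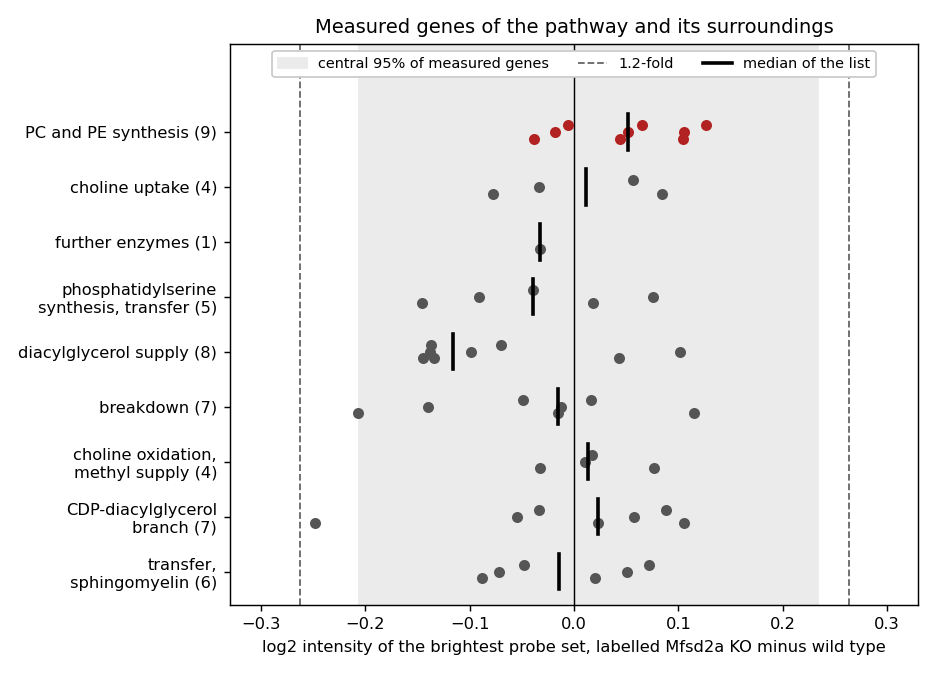
Log2 difference (array labelled Mfsd2a KO minus wild-type array) of the brightest probe set of each measured gene in phosphatidylcholine (PC) and phosphatidylethanolamine (PE) synthesis (red) and in the 8 lists around it (grey), with the number of genes in brackets, list medians as bars, the central 95% of measured genes shaded and 1.2-fold dashed. No point passes the dashed lines, and the list medians lie between -0.12 (diacylglycerol supply) and 0.051 (PC and PE synthesis).

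Lists of tissue markers were read in the same way, where 1.79% of all measured genes were 1.2-fold higher and 1.17% lower. Of all measured genes 55.8% were above 0 and 42.4% below. The 3 measured rod markers (Pde6b, Gnat1 and Sag) summed to 44862 on the array labelled Mfsd2a KO and 45198 on the wild-type array. All 3 measured pigment epithelium markers were below 0, with sums of 11473 on the array labelled Mfsd2a KO and 12351 on the wild-type array. Rdh5 (-0.34) was past 1.2-fold, at 2154 on the array labelled Mfsd2a KO and 2722 on the wild-type array. Rpe65 (-0.078) and Rlbp1 (-0.030) differed less. Best1, below the floor on both arrays, was at 0.045. All 3 vessel markers were below 0, with sums of 1096 on the array labelled Mfsd2a KO and 1239 on the wild-type array. They were Cldn5 (-0.21), Pecam1 (-0.14) and Cdh5 (-0.018). The 3 Mueller glia markers, which share Rlbp1 with the pigment epithelium list, summed to 16467 on the array labelled Mfsd2a KO and 16841 on the wild-type array. Glul and Rlbp1 were below 0. Slc1a3 was above it at 0.036, and its 5 measured probe sets ran from 0.016 to 0.44. All 3 measured microglial markers were above 0, with sums of 1800 on the array labelled Mfsd2a KO and 1614 on the wild-type array. C1qa was 1.36-fold and Tyrobp 1.31-fold higher, while Csf1r differed by 0.024.

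All 4 cornea markers read lower on the array labelled Mfsd2a KO, 3 of them past 1.2-fold, with sums of 656 on the array labelled Mfsd2a KO and 846 on the wild-type array. Of 6 skeletal muscle markers 4 were lower and 2, Pvalb (-0.61) and Ckm (-0.34), were past 1.2-fold. Tnnt3 (-0.25) and Mylpf (-0.20) were lower by less, while Myh1 (0.22) and Acta1 (0.029) were above 0. The 6 summed to 2723 on the array labelled Mfsd2a KO and 2975 on the wild-type array. Pvalb alone read 368 on the array labelled Mfsd2a KO and 561 on the wild-type array. Of 3 measured lens markers 2 were above 0 and Cryaa was 1.28-fold higher, with sums of 1363 on the array labelled Mfsd2a KO and 1249 on the wild-type array. Mbp, the 1 measured myelin marker, differed by 0.14 in its brightest probe set, while its 7 measured probe sets reached down to -2.00. The Y-linked Uty, Kdm5d and Eif2s3y were 1.57 to 2.01-fold higher. No marker was listed at 0. The part of these tissues and of sex in the values of the phospholipid enzymes was not tested.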

How the data were processed

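The authors deposited 1 intensity per probe set and array on a linear scale, for 45101 probe sets on 2 arrays. Partek 6.6 and RMA (background correction, equalised distributions and a summary over the probes of a set) were used, per the submitters' processing notes, with no settings given. RMA shrinks differences of faint probe sets and removes any overall difference between pools. Depth does not apply; the number of arrays limits precision.

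Here log2 values were subtracted, the array labelled Mfsd2a KO minus wild type. Symbols came from the platform annotation, checked through Entrez identifiers against RefSeq (GRCm38.p6), which held 34741 of 34945 probe sets with 1 symbol. Counts used 1.2-fold, and 64 control probe sets were left out. The wider-list genes named are those past 1.2-fold or otherwise the 2 with the largest difference in each list; all members are named. Members and lists were chosen with earlier results of these data known. Alternatives were other scalings, floors, fold sizes and probe set rules. Python 3.11.15, numpy 2.4.6, pandas 2.3.3, statsmodels 0.14.6 and matplotlib 3.10.9 were used, and the steps were tested on simulated data.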

Additional observations from a re-analysis of the deposited data

Results flagged for a closer look

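Probe sets annotated with pseudogenes of Pisd, outside the comparison because they carry no member symbol alone, differed more than the Pisd probe set itself (-0.0058). The highest, 1453144_at, annotated with Pisd-ps3 alone, read 284 on the array labelled Mfsd2a KO and 227 on the wild-type array, a log2 difference of 0.32. Of 10 measured probe sets annotated with a Pisd pseudogene, all 10 were above 0, where 55.9% of all measured probe sets were, with a median of 0.15. One more, below the floor, differed by -0.16. Of the 10, 2 were 1.2-fold higher (1.85% of all measured probe sets were). The 10 overlap in what they detect, and 1 of them, annotated with Pisd as well, read 1031 on the array labelled Mfsd2a KO and 934 on the wild-type array (0.14). They were chosen once their values had been seen, and which copy the probes detect was not tested.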

How the results depend on the processing

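No paired analysis was possible because there is 1 array for each genotype, and for the same reason no replicate could be left out. Over the alternative settings the median of the measured members lay between 0.039 and 0.065, and that of diacylglycerol supply between -0.13 and -0.065. The count of 1 member probe set 1.2-fold higher became 0 with 50 added to both intensities (where Chpt1 1455901_at differed by 0.22), 0 with a floor set at the 70th percentile, and 0 at 1.5-fold. At 1.1-fold 1 probe set, of Etnk1, was lower. Without probe sets named _s_at, _x_at or _a_at 6 members were measured. Of these 1, Chpt1, was 1.2-fold higher, since 1455901_at is then its brightest. The share of all genes past 1.2-fold in that setting is not given here. With the loess trend removed 1 gene of the CDP-diacylglycerol branch, Cds1, was 1.2-fold lower (-0.27). With no floor 1 gene of choline oxidation, Bhmt2, was 1.2-fold higher, at 12.8 on the array labelled Mfsd2a KO and 10.5 on the wild-type array. With the mean of probe sets the list of further enzymes, Selenoi alone, was at -0.13. The medians of 5 of the 8 wider lists, all near 0, took another sign in some setting. The cause of these changes was not tested beyond what each setting's construction gives.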

Other observations

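The deposited intensities are not spread evenly over decimals. Of the 17792 values between 100 and 1000 on the array labelled Mfsd2a KO, 853 ended in 0.176 and 836 in 0.676, where even spacing over 3 decimals would give 17.8 each, and on the wild-type array the numbers were 855 and 832 of 17958. The brightest Chpt1 probe set, at 214.676 on the array labelled Mfsd2a KO and 207.176 on the wild-type array, is among them. In 413 of the 20105 measured probe sets, or 2.05%, the arrays held exactly the same value, as in the faintest probe set of Chka. What step of the processing gave these values was not tested.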
